A study of Mus musculus with 20 samples.

Results

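Podocytes are the epithelial cells that wrap the capillaries of the kidney glomerulus. Neighbouring podocytes interlock through foot processes, and the gap between these processes is bridged by the slit diaphragm, a protein sheet built around nephrin. The actin skeleton of the foot processes, the negatively charged coat of the apical membrane and the transcription factor WT1 keep this arrangement in place, and loss of any of them is known to let protein pass into the urine. The 8 genes described here were taken by symbol from the kidney count table, which listed 55486 genes, and each symbol matched 1 gene. They comprise the slit diaphragm genes Nphs1, Magi2 and Cd2ap, the membrane protein genes Podxl and Ptpro, the cytoskeletal genes Synpo and Nes, and Wt1.

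Kidney RNA was sequenced from 5 C57BL/6 mice given oxaliplatin, a platinum drug that damages DNA, and from 5 that received its carrier. According to the methods, male and female mice entered the experiment at 10 weeks of age. Oxaliplatin was injected intraperitoneally at 10 mg/kg, and control mice received 5% dextrose alone, over 8 weeks. Bone marrow from 5 control and 5 oxaliplatin-treated mice was sequenced as well, taken 6 days after the last dose. The time of kidney collection is not given in the sources used here. Every library is described as a separate biological replicate, and no transgene or mutant line was used.

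Total counts ranged from 24393007 to 28304953 in control kidneys and from 26314983 to 30925430 in oxaliplatin kidneys. Levels are given as CPM, counts relative to a library size that was scaled by TMM in edgeR, with the SD over 5 mice. The scaling factors were 0.919 to 0.990 in control and 1.01 to 1.09 in oxaliplatin libraries, so the groups did not share a range. Control and oxaliplatin kidneys were compared by the quasi-likelihood method of edgeR (two-sided), and p-values were adjusted after Benjamini and Hochberg across the 19293 kidney genes that passed a filter on low counts. Xist was at 0 to 19 counts and Ddx3y, a Y-linked gene, at 572 to 1097 counts in every kidney library, so no library had the pattern of a female mouse. The tubule markers Lrp2 and Umod were abundant in all kidney libraries.

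All 8 podocyte genes passed the filter, with 272 to 9303 counts per library. After oxaliplatin 7 of the 8 were higher at an adjusted p under 0.05 in edgeR (Nphs1, Podxl, Synpo, Wt1, Ptpro, Nes and Magi2), against 14.4% of all tested genes in that direction, and none had a lower estimate. With a change above 1.5-fold required as well, 4 were called (Nphs1, Synpo, Wt1 and Nes), against 7.68% of all tested genes that were higher. Without control mouse 3 or without oxaliplatin mouse 2 the number was 2 (Synpo and Wt1), and with library size alone it was 6. For 6 of the 8 every oxaliplatin mouse lay above every control mouse, which held for 9.69% of all tested genes. The median log2 fold change was 0.59 over the 8 genes and 0.02 over all tested genes. In total the 8 genes took 0.0386% to 0.0431% of the counts of a control kidney and 0.0562% to 0.0702% of those of an oxaliplatin kidney, before any scaling. In whole tissue, changes in the number of podocytes, in the RNA per podocyte and in other cells that express these genes cannot be told apart.

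**Figure D1:**
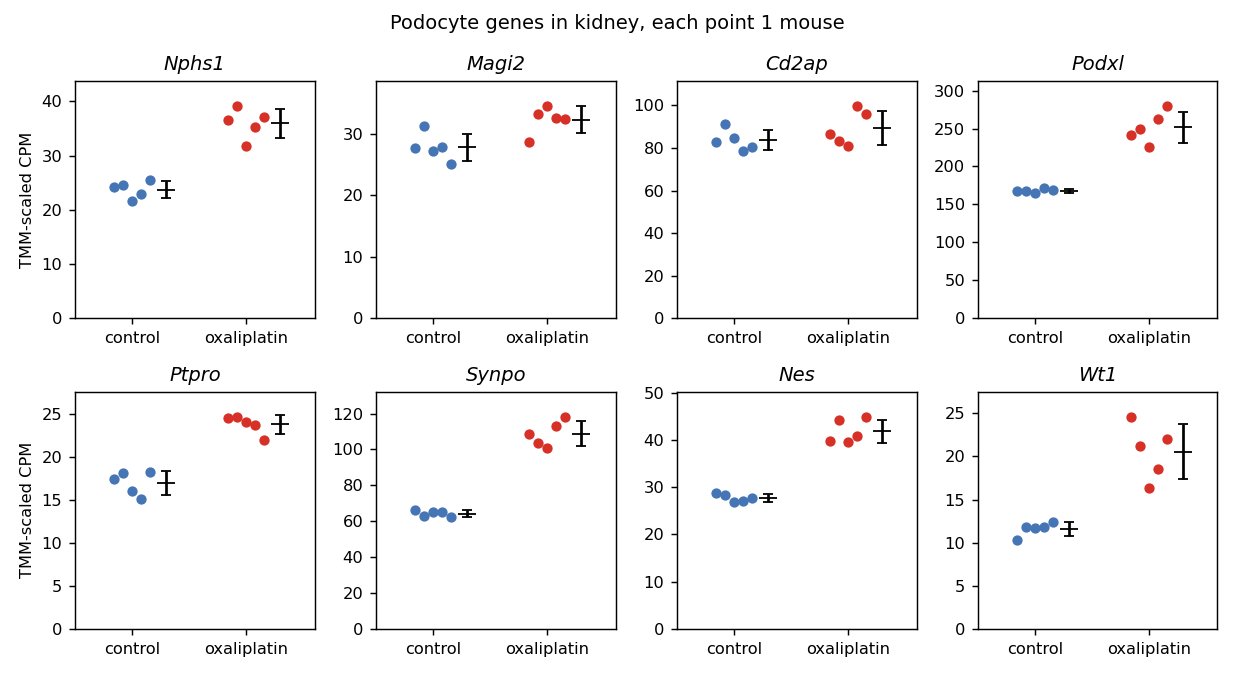
Expression of the 8 podocyte genes in kidney, in TMM-scaled CPM on a linear axis from 0, for 5 control (blue) and 5 oxaliplatin (red) mice. Points are mice, and the black mark and bar give the mean and SD. The groups are separate for Nphs1, Podxl, Ptpro, Synpo, Nes and Wt1, and overlap for Magi2 and Cd2ap.

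Nphs1 encodes nephrin, the adhesion protein that spans the slit diaphragm, and lies at chr7:30458315-30487223 on the plus strand (GRCm38). Control kidneys 1 to 5 had 24.1, 24.6, 21.6, 23.0 and 25.4 CPM. Oxaliplatin kidneys 1 to 5 had 36.5, 39.1, 31.8, 35.3 and 37.1 CPM. The highest control lay well below the lowest oxaliplatin mouse. The mean rose from 23.7 ± 1.504 to 36.0 ± 2.702 CPM (SD, n = 5), which is a log2 fold change of 0.60 (SE 0.075, 95% interval 0.44 to 0.76, edgeR adjusted p = 2.6e-05). Nphs1 shares 597 exon bases with the antisense gene Nphs1os and 183 with the pseudogene Rps12-ps4. Nphs1os had 0 to 9 counts per kidney library, whereas Nphs1 had 499 to 1238, and whether the counting used strand is not given in the sources used here.

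Magi2 encodes a scaffold protein that binds nephrin from the cytoplasmic side and is also made outside the glomerulus. It lies at chr5:19227036-20704792 on the plus strand and shares 203 exon bases with Gm29254. Its level was 27.7, 31.2, 27.1, 27.8 and 25.0 CPM in control kidneys 1 to 5. It was 28.6, 33.2, 34.4, 32.6 and 32.4 CPM in oxaliplatin kidneys 1 to 5. Oxaliplatin mouse 1 lay below control mouse 2, so the groups overlapped. The mean was 27.8 ± 2.22 CPM in controls and 32.2 ± 2.19 CPM after oxaliplatin, a log2 fold change of 0.21 (SE 0.076, 95% interval 0.05 to 0.38, edgeR adjusted p = 0.0425). This call was lost in 11 of 18 alternative analyses, among them DESeq2 (adjusted p = 0.0581; range over all alternatives 0.00466 to 0.116) and the removal of any 1 of 8 mice.

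Cd2ap encodes an adaptor that links nephrin to the actin skeleton and is broadly expressed, also in tubules. It lies at chr17:42792951-42876665 on the minus strand. Control kidneys ranged from 78.8 to 91.2 CPM and oxaliplatin kidneys from 81.1 to 99.5 CPM. The means, 83.6 ± 4.77 and 89.3 ± 8.01 CPM, differed by less than the SD among oxaliplatin mice, and the groups overlapped. The log2 fold change was 0.10 (SE 0.071, 95% interval -0.05 to 0.24, edgeR adjusted p = 0.329). With library size alone in place of TMM scaling, the value was 0.23 and passed the test (edgeR adjusted p = 0.0399).

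Podxl encodes podocalyxin, the sialic acid-rich protein that gives the podocyte surface its charge and keeps foot processes apart. Endothelial and blood progenitor cells also make it. Podxl lies at chr6:31519488-31563981 on the minus strand. Control kidneys 1 to 5 had 167, 168, 165, 172 and 168 CPM. Oxaliplatin kidneys 1 to 5 had 242, 250, 225, 263 and 279 CPM. The control mice lay within a narrow band and every oxaliplatin mouse was above it. The mean rose from 168 ± 2.62 to 252 ± 20.5 CPM (SD, n = 5), with a log2 fold change of 0.58 (SE 0.066, 95% interval 0.44 to 0.72, edgeR adjusted p = 1.1e-05). As a fold, 1.498, this estimate fell just short of the 1.5-fold threshold, which Nphs1 at 1.52 and Nes at 1.51 just exceeded.

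Ptpro encodes GLEPP1, a receptor-type tyrosine phosphatase of the apical foot process membrane that is also made by some leukocytes. It lies at chr6:137252319-137463233 on the plus strand. Control kidneys 1 to 5 had 17.4, 18.1, 16.03, 15.1 and 18.3 CPM. Oxaliplatin kidneys 1 to 5 had 24.5, 24.6, 24.1, 23.7 and 21.99 CPM. The groups were separate, and the oxaliplatin mice were as tightly grouped as the controls. The mean rose from 17.0 ± 1.38 to 23.8 ± 1.07 CPM, with a log2 difference of 0.49 (SE 0.079, 95% interval 0.32 to 0.65, edgeR adjusted p = 2.6e-04).

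Synpo encodes synaptopodin, an actin-bundling protein of foot processes and of neuronal dendritic spines, and lies on the minus strand of chromosome 18. Control kidneys 1 to 5 had 66.5, 62.7, 65.3, 65.0 and 62.1 CPM. Oxaliplatin kidneys 1 to 5 had 109, 104, 100.995, 113 and 118 CPM. No oxaliplatin mouse came near the control range. The mean rose from 64.3 ± 1.84 to 109 ± 6.94 CPM, with a log2 difference of 0.76 (SE 0.062, 95% interval 0.63 to 0.89). Its adjusted p of 2.8e-07 in edgeR was the lowest of the 8 genes.

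Nes encodes nestin, an intermediate filament protein of mature podocytes, of neural progenitors and of some endothelial and mesenchymal cells. It lies at chr3:87971078-87980451 on the plus strand. Control kidneys 1 to 5 had 28.7, 28.3, 26.8, 27.2 and 27.7 CPM. Oxaliplatin kidneys 1 to 5 had 39.9, 44.2, 39.5, 40.9 and 44.9 CPM. The groups were separate, with little spread among controls. The mean rose from 27.7 ± 0.795 to 41.9 ± 2.48 CPM, with a log2 difference of 0.59 (SE 0.066, 95% interval 0.46 to 0.73, edgeR adjusted p = 8.8e-06). DESeq2, which also gave a rise in Nes, put it at 0.58 on the log2 scale and so just below 1.5-fold.

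Wt1 encodes a zinc finger transcription factor that podocytes need to form and to keep expressing their own genes. In the adult kidney it is also present in some parietal cells of Bowman's capsule. Wt1 lies at chr2:105126529-105173616 on the plus strand. Control kidneys 1 to 5 had 10.3, 11.9, 11.7, 11.8 and 12.4 CPM. Oxaliplatin kidneys 1 to 5 had 24.5, 21.2, 16.3, 18.5 and 22.1 CPM. The groups were separate, and the oxaliplatin mice were more widely spread than for the other genes in proportion to their mean. The mean rose from 11.6 ± 0.786 to 20.5 ± 3.20 CPM. The log2 fold change of 0.82 was the largest of the 8 in this comparison (SE 0.11, 95% interval 0.60 to 1.05, edgeR adjusted p = 3.5e-05) and exceeded that of 93.4% of all tested genes.

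Sequence upstream of the genes was read from RefSeq (GRCm38.p6) for 3 of the genes. The windows lie upstream of an annotated start and are shown because the genes rose by different amounts in kidney, Nes by 0.59, Ptpro by 0.49 and Magi2 by 0.21 on the log2 scale. Capitals mark GCGTGGG, or its reverse complement, a sequence that zinc finger factors of the EGR and WT1 family are known to bind.
Nes, chr3:87970843-87971077, plus strand: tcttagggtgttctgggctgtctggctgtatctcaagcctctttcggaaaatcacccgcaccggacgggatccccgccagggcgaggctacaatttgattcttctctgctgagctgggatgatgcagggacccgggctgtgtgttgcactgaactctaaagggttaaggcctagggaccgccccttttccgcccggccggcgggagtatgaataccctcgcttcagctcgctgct
Ptpro, chr6:137252049-137252298, plus strand: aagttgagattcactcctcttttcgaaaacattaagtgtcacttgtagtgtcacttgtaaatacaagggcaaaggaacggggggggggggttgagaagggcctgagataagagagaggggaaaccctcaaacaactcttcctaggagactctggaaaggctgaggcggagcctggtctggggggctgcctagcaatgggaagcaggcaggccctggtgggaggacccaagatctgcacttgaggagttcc
Magi2, chr5:19226796-19227035, plus strand: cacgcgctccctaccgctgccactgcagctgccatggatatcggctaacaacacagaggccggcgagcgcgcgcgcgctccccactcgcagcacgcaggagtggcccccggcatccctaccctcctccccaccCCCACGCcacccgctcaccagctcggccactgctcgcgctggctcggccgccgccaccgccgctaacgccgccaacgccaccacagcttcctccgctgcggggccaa
The Magi2 window held 1 match, on the reverse strand, and neither of the other windows held any. GCGTGGG on either strand occurred in 4.30% of 32851 RefSeq promoter windows. TAATTA, a homeodomain site, occurred in 4.84% of them. The 6 RefSeq windows found covered only some of the 8 genes. Of these 6, 1 held GCGTGGG and 1 held TAATTA, both upstream of Magi2. The Magi2 window with TAATTA is not the one printed. A match here describes the letters only.

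An exact two-sided permutation test on single genes, over the 252 ways to divide 10 kidneys into 5 and 5, gave its smallest possible p of 0.00794 for each of the 6 genes whose groups were separate. For Magi2 the exact p was 0.0159 and for Cd2ap 0.198. Scaling by library size alone moved the median log2 fold change of all genes to 0.16 and that of the 8 genes to 0.72, so the podocyte genes stayed above the median gene on both scales. On that scale 82.7% of the called kidney genes were higher, against 66.8% with TMM.

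Between genes, levels were compared per kilobase of exon (RPKM, CPM divided by the union exon length). In control kidneys the order was Podxl at 30.6 ± 0.477, Synpo at 6.75 ± 0.193, Cd2ap at 5.27 ± 0.301, Nes at 4.32 ± 0.124 and Nphs1 at 3.59 ± 0.227 RPKM. Ptpro at 2.53 ± 0.205 and Magi2 at 2.45 ± 0.196 RPKM did not differ beyond their spread, and Wt1 was lowest at 1.87 ± 0.127 RPKM. After oxaliplatin Nes, at 6.53 ± 0.387 RPKM, lay above Cd2ap at 5.63 ± 0.505 RPKM. Nphs1 at 5.43 ± 0.408 RPKM was then within the spread of Cd2ap, and Ptpro was at 3.54 ± 0.159 RPKM. Wt1 at 3.31 ± 0.517 RPKM lay above Magi2 at 2.84 ± 0.193 RPKM by less than its own SD. The levels of Podxl and Synpo kept their first and second places, at 45.9 ± 3.74 and 11.4 ± 0.728 RPKM.

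The 7 other genes were next related to Nphs1 within each kidney library, a quantity that does not depend on scaling between libraries. The log2 ratio to Nphs1 changed by -0.02 for Podxl and by -0.01 for Nes (exact permutation p = 0.754 and 0.905), which was less than the spread between mice. For Cd2ap it changed by -0.51, with every oxaliplatin mouse below every control mouse (exact permutation p = 0.00794). For Magi2 it changed by -0.38 with overlapping groups (exact permutation p = 0.0159). After adjustment over the 7 ratios the p of both was 0.0556 in this exact permutation test, which did not pass 0.05. A single ratio at 0.00794, the smallest p possible here, could not pass on its own after adjustment over 7. The adjusted test therefore could not decide for Cd2ap. Wt1 at 0.21, Synpo at 0.16 and Ptpro at -0.11 had overlapping groups (exact permutation p = 0.0556, 0.0794 and 0.151).

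**Figure D2:**
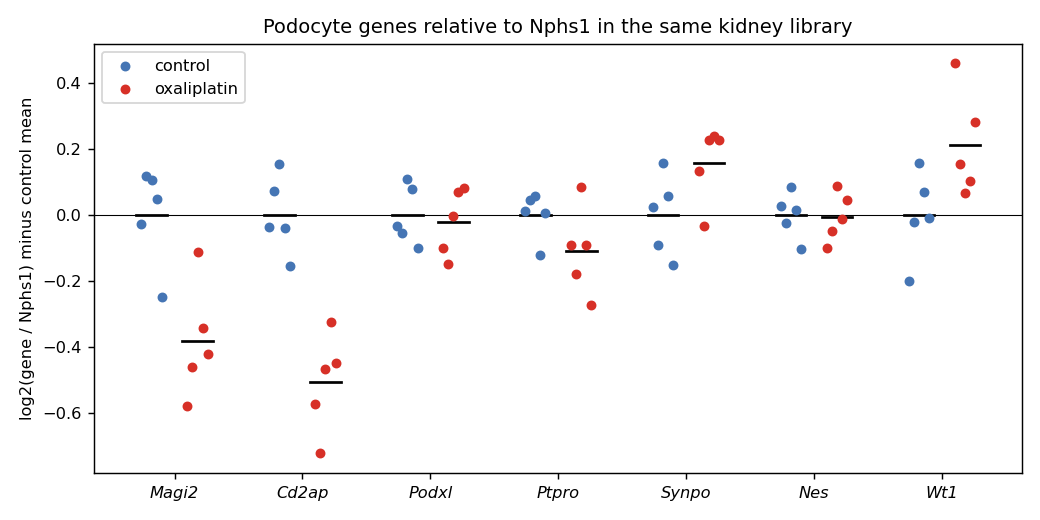
Log2 ratio of each of 7 podocyte genes to Nphs1 in the same kidney library, minus the control mean of that ratio, for control (blue) and oxaliplatin (red) mice. Points are mice and lines are group means. Cd2ap lies at -0.51 and Magi2 at -0.38 after oxaliplatin, while Podxl and Nes stay near 0.

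Whether the genes also varied together from mouse to mouse was examined over 10 kidneys, as deviations of log2 CPM from the mean of the mouse's own group. With Nphs1, Pearson's r was 0.71 for Nes (rho 0.70), 0.57 for Wt1 (rho 0.68), 0.48 for Podxl (rho 0.33) and 0.43 for Ptpro (rho 0.67). It was 0.17 for Cd2ap (rho 0.07), 0.09 for Synpo (rho -0.18) and -0.20 for Magi2 (rho 0.02). For Nes the exact permutation p was 0.0267 for r and 0.0385 for rho, and adjustment of the former over 7 pairs gave an exact permutation p of 0.187. No pair passed after adjustment. Without control mouse 3 and oxaliplatin mouse 3, the 2 kidneys farthest from the median of Nphs1, r was 0.54 for Nes, 0.31 for Wt1, 0.65 for Ptpro, -0.23 for Podxl, -0.29 for Cd2ap, -0.04 for Magi2 and -0.60 for Synpo. The median r over the 7 genes went from 0.43 to -0.04. It was 0.06 without oxaliplatin mouse 3 alone and 0.32 without control mouse 3 alone. Leaving out the mice with the most distant Nphs1 values also narrows the range of Nphs1. This omission therefore cannot decide whether the genes vary together. Among 19292 genes, the pattern most like that of Nphs1 belonged to Pgpep1l (r = 0.98), S100pbp (0.94), Rrm2 (0.93), Gm8670 (0.93) and Magi3 (0.91). Nes came at rank 168 and Wt1 at rank 648. These ranks describe 10 libraries that share their scaling and carry no test.

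A wider set of podocyte genes, 72 genes in 6 lists by role, was read from the same test. Of the 70 that passed the filter, 37 rose, 6 fell and 27 did not pass at an adjusted p under 0.05 in edgeR, where 14.4% of all tested genes were higher and 15.0% lower. The median log2 fold change over the 70 was 0.26. With the 1.5-fold threshold 15 rose and none fell, against 7.68% and 3.81% of all tested genes, and the largest fall among the 6, that of Htra1, was just under 1.5-fold. Many of these genes are also made by tubules, vessels or stroma.

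Of the slit diaphragm and its signalling partners, 8 of 13 tested genes rose and 1 fell. Kirrel, whose product NEPH1 pairs with nephrin, rose by 0.99 on the log2 scale, and Plce1, a phospholipase of developing podocytes, by 0.78. For Plce1, oxaliplatin mouse 4 had 27.7 CPM and the other oxaliplatin mice 13.8 to 14.5 CPM, against 8.60 to 10.3 CPM in controls. Fat1, a giant cadherin, and Iqgap1, a cytoskeletal scaffold, had the highest means of the list and rose by 0.60 and 0.28, and Tjp1, a junction scaffold, rose by 0.47. Pard3, a polarity protein, fell by 0.20, but with library size alone the value was -0.07 and did not pass (edgeR adjusted p = 0.423). Trpc6, a calcium channel, had a log2 fold change of 1.02 at under 1 CPM, which did not pass (edgeR adjusted p = 0.0507).

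Of the 16 genes of the foot process cytoskeleton, 8 rose, 1 fell and 7 did not pass. Anln rose by 1.26, Inf2 by 0.91 and Vim by 0.77 on the log2 scale; they encode an actin-binding scaffold, a formin and the intermediate filament vimentin. Actn4, the alpha-actinin of foot processes, had the highest mean of the list and rose by 0.34. Arpc2, a subunit of the actin-nucleating Arp2/3 complex, fell by 0.25. With library size alone its value was -0.12 and did not pass (edgeR adjusted p = 0.135). Among the 4 apical genes, Pdpn (podoplanin) rose by 0.62 and Ezr (ezrin) by 0.29, whereas Slc9a3r1, which is abundant in proximal tubules, fell by 0.37.

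Of 8 further podocyte transcription regulators, 4 rose and 4 did not pass. Lmx1b rose by 0.64 and Foxc2 by 0.61 on the log2 scale. Foxd1 and Foxc1 rose by 0.53 and 0.25. Foxc1 was near the threshold in edgeR (adjusted p = 0.0473) and did not pass in DESeq2 (adjusted p = 0.0731). Among those that did not pass were Dach1 (0.08), Cdkn1c (0.06) and Tcf21 (-0.03). Whereas Wt1 rose 1.77-fold, Tcf21 stood at 16.5 ± 3.43 CPM in controls and 16.3 ± 4.13 CPM after oxaliplatin. For Tcf21, oxaliplatin mouse 5 had 8.91 CPM and the other oxaliplatin mice 17.5 to 18.6 CPM. The contrast between these genes was not tested.

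Of 13 tested genes of the glomerular basement membrane and its receptors, 8 rose and none fell. The linker nidogen, Nid1, rose by 1.37 on the log2 scale, and the laminin chains Lama5, Lamc1 and Lamb2 rose by 0.58, 0.57 and 0.47. The type IV collagen chains Col4a4, Col4a3 and Col4a5 had log2 fold changes of -0.09, -0.06 and 0.02, none of which passed, and library size alone turned the first and second of these positive. Secreted and surface signals were mixed, with 7 of 16 rising and 3 falling. Spock2 rose by 1.82, Sema3g by 1.29, Crb2 by 0.86 and Thsd7a by 0.71, and Vegfa, the growth factor that podocytes supply to glomerular capillaries, rose by 0.47. Htra1, Fgf1 and Cxcl12 fell by 0.58, 0.45 and 0.24. With library size alone Cxcl12 was at -0.10 and did not pass (edgeR adjusted p = 0.320).

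Markers of other kidney cells moved in the same libraries, where 14.4% of all tested genes were higher and 15.0% lower at an adjusted p under 0.05. The mesangium list had 7 of 10 genes higher and none lower (median log2 fold change 0.49), and its summed level went from 188 to 208 CPM in controls to 293 to 353 CPM after oxaliplatin. The endothelial list had 9 of 12 higher and none lower (median 0.50), with a sum of 689 to 762 CPM against 873 to 1272 CPM. All 5 fibroblast markers were higher (median 1.22), with a sum of 142 to 161 CPM against 319 to 423 CPM. For the 8 podocyte genes the sum was 418 to 436 CPM against 553 to 652 CPM. Of the proximal tubule markers 2 of 10 were higher and 4 lower, and their median log2 fold change was 0.02, as over all tested genes. Their sum was 24992 to 29270 CPM in controls and 19105 to 23054 CPM after oxaliplatin. No marker on these 4 lists of other cells was at 0 in a group mean. The remaining lists are small, and some of their shares are near those of all tested genes. Of the parietal epithelium markers 3 of 7 were higher and 1 was lower, in the thick ascending limb 2 of 5 and in the collecting duct 3 of 7 were higher with none lower, and none of 4 distal tubule and 5 red cell markers passed in edgeR. Of the injury markers 2 of 6 tested were higher (Lcn2 and Spp1). Timp1 and Krt20 did not pass the count filter of edgeR but passed in DESeq2, without that filter (adjusted p = 3.1e-04 and 0.0351). Of the immune markers 1 of 6 tested was higher and 2 were lower. The part of these other cells in the podocyte gene values was not tested.

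**Figure D3:**
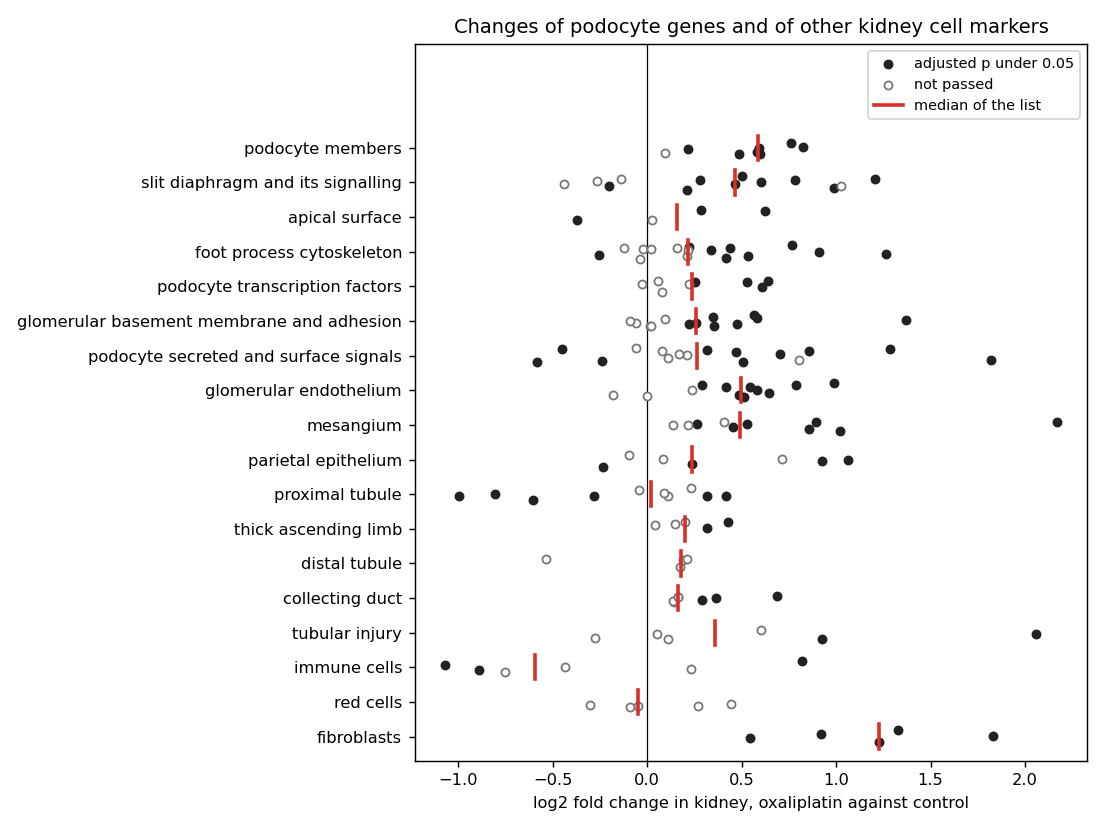
Log2 fold change in kidney, oxaliplatin against control, of every tested gene on the podocyte and other cell lists, 1 row a list. Filled points passed an adjusted p under 0.05 in edgeR, open points did not, and red lines are list medians. The 8 podocyte genes have a median of 0.59 and the fibroblast markers 1.22, and 4 of the proximal tubule markers passed to the left of 0.

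The same 8 genes were read in bone marrow, which has no podocytes. Nphs1 had 0 to 3 counts in 9 of the 10 marrow libraries and 19 counts in oxaliplatin mouse 4, and Wt1 had 0 to 5 counts, so neither passed the filter and no fold is given. The other 6 genes were measurable, and 3 of them rose at an adjusted p under 0.05 and above 1.5-fold, against 11.6% of the 22363 marrow genes tested.

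Podxl had 8.77, 7.48, 10.5, 7.13 and 7.83 CPM in control marrow 1 to 5. It had 50.5, 75.3, 108, 104 and 66.0 CPM in oxaliplatin marrow 1 to 5. The groups were far apart, with a mean of 8.35 ± 1.36 against 80.8 ± 24.8 CPM and a log2 fold change of 3.28 (SE 0.21, edgeR adjusted p = 3.4e-07). Nes went from 2.84 ± 0.410 to 8.53 ± 3.71 CPM, with a log2 fold change of 1.59 (SE 0.27, edgeR adjusted p = 5.3e-04). Synpo went from 21.3 ± 2.19 to 50.6 ± 14.7 CPM, with a log2 fold change of 1.25 (SE 0.17, edgeR adjusted p = 1.1e-04). For these 3 genes every oxaliplatin library was above every control library, as for 11.4% of tested marrow genes.

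Ptpro in marrow was 22.2 ± 1.27 CPM in controls and 16.5 ± 7.36 CPM after oxaliplatin, with a log2 fold change of -0.43 (SE 0.26, edgeR adjusted p = 0.230). Oxaliplatin marrow 1, at 27.7 CPM, stood above every control, and the other 4 had 7.11 to 16.8 CPM. Without it the log2 fold change was -0.69 and passed (edgeR adjusted p = 0.0224, the lowest over 14 alternatives, whose highest was 0.433). Magi2 and Cd2ap had log2 fold changes of 0.41 and 0.04, which did not pass (edgeR adjusted p = 0.153 and 0.758). Magi2 passed in 2 of 14 alternative analyses, with a term for Y-linked genes (log2 fold change 0.67) and without oxaliplatin marrow 5 (0.56). Its adjusted p ranged from 0.0253 to 0.305 over the 14 in edgeR and DESeq2. Of the 12 endothelial markers 10 were higher in oxaliplatin marrow (adjusted p under 0.05 in edgeR, which 16.3% of tested marrow genes passed in that direction) and none was lower, and their summed level went from 446 to 580 CPM in controls to 765 to 1145 CPM. All 5 red cell markers were lower in oxaliplatin marrow, with a median log2 fold change of -2.64, where 16.8% of tested marrow genes were lower at this threshold. Their sum went from 24987 to 45743 CPM in controls to 2635 to 9091 CPM. The part of either shift in the rise of Podxl, Nes and Synpo was not tested.

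The difference between the tissues was tested as the tissue by treatment interaction in edgeR over 20 libraries, in which 30.1% of 24321 genes passed. This fit treated the 20 libraries as independent, with no term for mice that may have given both tissues. It filtered and scaled both tissues together, so its values differ slightly from the differences between the separate fits above. The log2 fold change was higher in marrow than in kidney by 2.76 for Podxl (SE 0.23, edgeR adjusted p = 1.3e-08), by 1.06 for Nes (SE 0.28, edgeR adjusted p = 0.0059) and by 0.55 for Synpo (SE 0.20, edgeR adjusted p = 0.0359). The call for Synpo was lost in 12 of 24 alternative analyses, among them library size alone (edgeR adjusted p = 0.0655), and its adjusted p ranged from 0.00168 to 0.0674 in edgeR and DESeq2. For Ptpro the difference was -0.87 (SE 0.27, edgeR adjusted p = 0.0162), where every treated kidney was above the controls and the change in marrow did not pass. For Cd2ap it was 0.00 (SE 0.11) and for Magi2 0.26 (SE 0.20), neither of which passed. Nphs1 at 1.26 and Wt1 at -1.26 (SE 0.89 for each) did not pass either (edgeR adjusted p = 0.308 and 0.310). Both rest on marrow counts near 0.

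**Figure D4:**
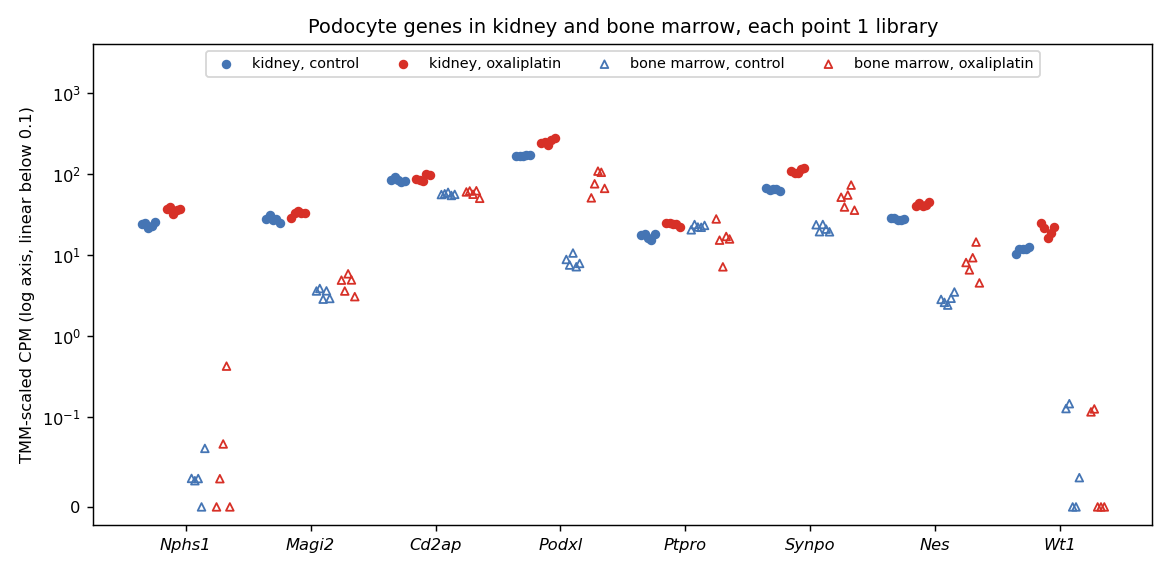
TMM-scaled CPM of the 8 podocyte genes in kidney (filled circles) and bone marrow (open triangles) of control (blue) and oxaliplatin (red) mice, on a log axis that is linear below 0.1. Points are libraries. Nphs1 and Wt1 lie near 0 in marrow, and Podxl in marrow moves from 8.35 to 80.8 CPM.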

How the data were processed

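Whole-tissue RNA of kidney and bone marrow was measured in 5 control and 5 oxaliplatin-treated mice per tissue. The authors deposited raw counts per gene, made according to the methods with STAR against Ensembl release 101 and, in Partek Flow, a tally of reads that aligned once and to 1 gene. The submitters' processing notes instead name STAR, Subread featureCounts and Salmon. The methods and the sample records also differ on library chemistry (a SMARTer kit, or removal of ribosomal RNA and random hexamers), and the strand setting is not given in the sources used here. Columns of other samples in the tables: none.

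Of 55774 lines in each table, 55486 genes were kept, after dropping 287 duplicate lines with the same counts and 1 incomplete line. Genes were filtered with filterByExpr (minimum count 10), scaled by TMM and fitted in edgeR 4.0.16 under R 4.3.3 with glmQLFit (robust) and glmQLFTest, two-sided, on treatment alone. Calls were made at an adjusted p under 0.05 and, where stated, above 1.5-fold. Log2 CPM used a prior count of 2. Correlations used all 14400 shuffles within groups. The edgeR and permutation steps were tested on simulated data. At 3 counts, taken as the floor, a gene stood at 0.0900 to 0.130 CPM in kidney, which covers counting error only. P-values describe the spread between these mice. Positions and exon lengths came from GENCODE release M21 (GRCm38), upstream sequence from RefSeq (GRCm38.p6). Figures were drawn with matplotlib 3.10.9.

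The 8 genes and all lists were chosen with earlier results of these data known, so their directions are not independent support. The text names the 8 genes, examples and called members of the lists, and the 5 genes most like Nphs1; a few list examples were picked after their values were seen. The alternatives were DESeq2 1.42.0, its size factors in edgeR, library size alone, other filters, the 20 most abundant genes left out, other fold thresholds, a term for Y-linked gene expression, a replicate block and omission of single mice. The ratios to Nphs1 were added after the data were seen. Some single genes of the lists are counted but not reported by name here.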

Additional observations from a re-analysis of the deposited data

Results flagged for a closer look

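Among 32 groups of 5 values, one for each of the 8 genes in each tissue and treatment, 2 held a library far from the others; chance alone would give such a library in about 1 group of 20. Wt1 in control kidney 1, at 10.3 CPM, lay below the other controls, which had 11.7 to 12.4 CPM. Nphs1 in oxaliplatin marrow 4, at 0.423 CPM from 19 counts, lay above the other 4 oxaliplatin libraries, which had 0 to 3 counts.

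The response to oxaliplatin differed between bone marrow and kidney for 4 of the podocyte genes in edgeR's interaction test. Of all 24321 genes in this test, 30.1% passed at an adjusted p under 0.05, so such a difference was common. In that joint fit, the log2 fold change in marrow minus that in kidney was 2.76 for Podxl, 1.06 for Nes, 0.55 for Synpo and -0.87 for Ptpro. The first 3 of these rose in both tissues, and Ptpro rose in kidney, while its change in marrow did not pass. The difference for Synpo did not pass in 12 of 24 alternative analyses.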

How the results depend on the processing

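Nphs1, Podxl, Synpo, Wt1, Ptpro and Nes kept their rise and an edgeR or DESeq2 adjusted p under 0.05 in each of the 18 alternative kidney fits. Magi2 lost its call in 11 of them, and Cd2ap gained one with library size alone. Of 91 list genes that passed, none changed sign in these fits and at most 10 no longer passed. The number of the 8 genes called depended on the fold threshold: it was 7 with no fold threshold and 0 above 2-fold, where the largest edgeR estimate was 1.77-fold (Wt1), against 4 at 1.5-fold. The number of kidney genes called was 5679 with no fold threshold and 941 above 2-fold, against 2216. Leaving out 1 mouse gave 2 to 5 of the 8 genes and 1761 to 2424 kidney genes. Without control mouse 3 or without oxaliplatin mouse 2 the number was 2 (Synpo and Wt1), since Nphs1 and Nes fell just under 1.5-fold (log2 0.57 and 0.58, and 0.57 and 0.57). The number was 3 in DESeq2, which left out Nes, and 6 with library size alone, which added Podxl and Ptpro. The median r with Nphs1 was 0.43 and was 0.0558 without oxaliplatin mouse 3, the lowest with 1 mouse left out, and 0.5032 without oxaliplatin mouse 5, the highest. With a replicate block 4 of the 8 genes and 2017 kidney genes were called; the numbers mark different mice, same-numbered kidneys correlated at -0.154 to 0.0754, and 2 of 10 libraries correlated best with their own number. In marrow 3 to 4 genes were called and 3 to 4 passed the interaction test across the alternatives. The causes of these differences were not tested.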
